A study of Mus musculus with 6 samples.

Results

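Polycomb repressive complex 2 (PRC2) was followed through the transcripts of 10 of its subunits, of the 55341 genes counted in RNA of mouse cerebellar granule neurons (CGNs) in culture. The members were chosen by gene symbol. They are the catalytic subunits Ezh1 and Ezh2, the core subunits Eed, Suz12 and Rbbp7, the accessory subunits Jarid2 and Aebp2 of the form called PRC2.2, and the Polycomb-like accessory subunits Phf1, Mtf2 and Phf19 of the form called PRC2.1. All 10 symbols were in the count tables, and all 10 genes passed the filter on low counts. The comparison was between 3 libraries of CGNs given GSK-126, an inhibitor of EZH2, and 3 libraries given its vehicle DMSO at day in vitro (DIV) 3, and it asks how the transcripts of the inhibited complex itself stood after treatment. By the study's methods, both groups were granule neuron precursors, isolated on Percoll from pooled litters of CD1-IGS mice at postnatal days 6 to 8, given AraC against dividing cells at DIV2, and collected for RNA at DIV5. The labels of both groups name the cerebellum as tissue and DIV3 as time. A biological replicate was a culture from pooled litters, so that no library stands for a single animal, and the dose at DIV3 was not given in the sources used here.

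PRC2 places methyl groups on lysine 27 of histone H3 (H3K27me3), a mark of silent genes. EZH2 or its paralog EZH1 carries the catalytic SET domain, which works only in a complex with SUZ12, the scaffold, and EED, which reads the finished mark and so stimulates further methylation. EZH2 is known as the more active enzyme and is abundant in dividing progenitors, while EZH1 is the form that postmitotic cells keep. RBBP7, like its paralog RBBP4, is a histone-binding protein shared with other chromatin complexes. Accessory subunits recruit the complex: JARID2 and AEBP2 are tied to ubiquitinated histone H2A, and the Polycomb-like proteins PHF1, MTF2 and PHF19 bind unmethylated CpG islands and, through their Tudor domains, methylated lysine 36 of histone H3. GSK-126 competes with the methyl donor in the catalytic site of EZH2, so that its direct target is the enzyme.

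Reads counted on genes ranged from 7407189 to 13092763 per library. Expression is given as CPM, the count of a gene relative to library size after scaling by the TMM factors of edgeR, and each fold change as log2 of GSK-126 over DMSO. The summed CPM of 7 markers of mature granule neurons was 574, 1769 and 748 in DMSO replicates 1, 2 and 3 and 305, 825 and 401 in GSK-126 replicates 1, 2 and 3. Replicate 2 of both groups had the highest granule neuron markers and the lowest astroglial markers, and replicate 1 had the highest astroglial markers. The log2 fold changes of the members in the block fit are also given without pair 2. Markers of other cells were present in all 6 libraries. Those of astroglia summed to between 2345 and 7252 CPM in the DMSO group and between 2238 and 7621 CPM in the treated group, those of endothelial, mural and fibroblast cells to between 5184 and 7231 CPM and between 6448 and 7955 CPM, and those of microglia to between 240 and 527 CPM and between 349 and 642 CPM, with Trem2 listed at 0 in every library. In bulk RNA of this kind, fewer cells of a type cannot be told apart from less RNA per cell.

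Jarid2 was the member with the largest difference, at -32.2% with GSK-126, and the catalytic and core subunits differed by less than the spread between cultures. In the fit without the replicate number, 0 of the 10 members passed an adjusted p of 0.05 (quasi-likelihood test of edgeR, Benjamini-Hochberg adjustment over 16729 genes), against a background of 0% of all genes, and 0 members had an unadjusted p under 0.05. In that fit an unadjusted p under 0.05 was reached by 296 genes on the higher side (1.77%) and 369 on the lower (2.21%), and the smallest adjusted p was 0.386. The Wald test of DESeq2 without the replicate number also called 0 members, against 0.15% of all genes. The replicate numbers pair the libraries, and with the number as a block in the edgeR fit 1 of the 10 members, Jarid2, passed, against a background of 8.44% of all genes in either direction, 3.35% higher and 5.09% lower. DESeq2 with the block called Jarid2 alone too, of the 9 members to which it gave an adjusted p, against 7.71%. This share is near the background and is not a result about the 10 members together. The median log2 fold change of the members was -0.064, beside -0.0071 over all genes tested, and 7 of the 10 were on the lower side, beside 8568 of 16729 genes. The 3 libraries of each group overlapped for all 10 members. Over all genes, the groups did not overlap for 4.72% with GSK-126 higher and for 4.72% with GSK-126 lower. With 10 members, nothing is read from this difference.

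**Figure D1:**
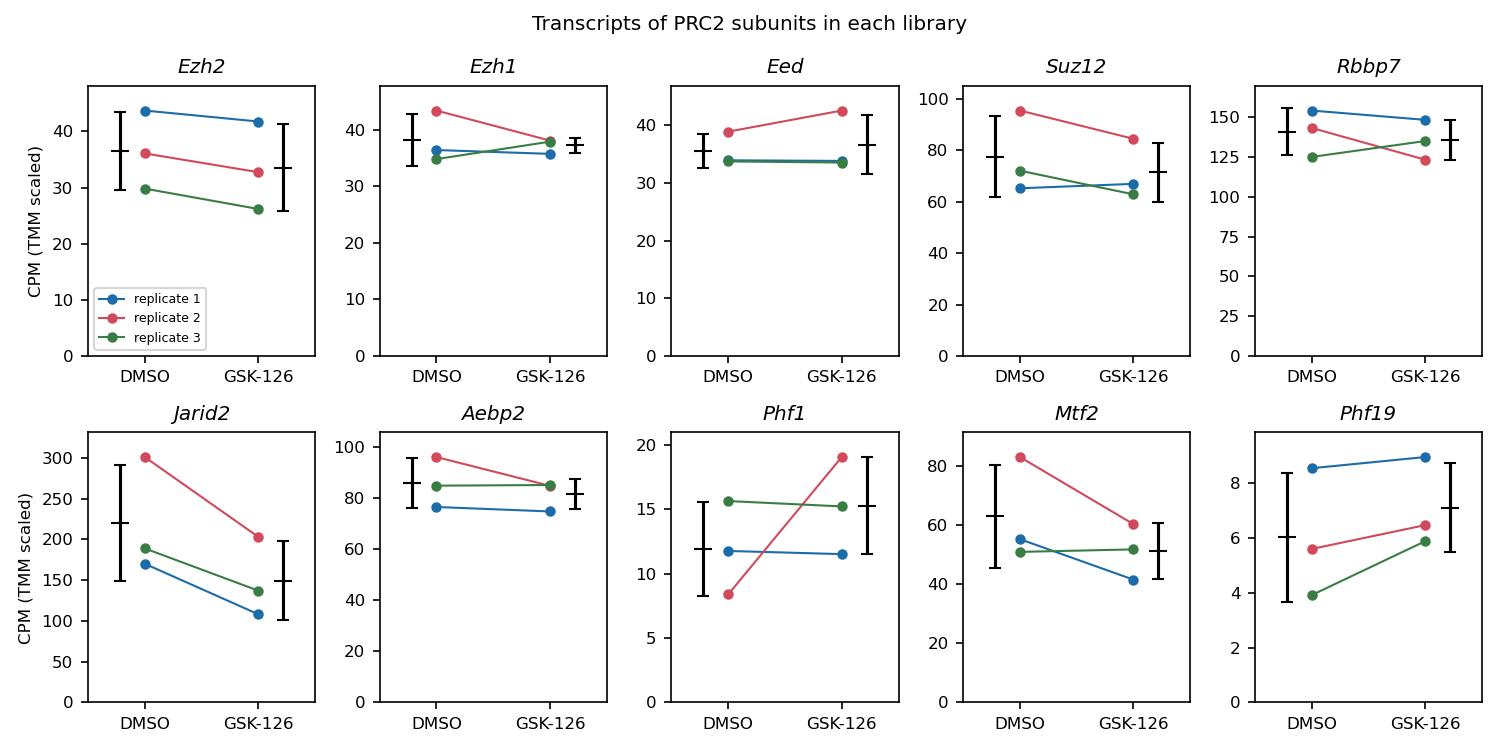
CPM, scaled by TMM, of the 10 PRC2 subunits in each library, with a line joining the DMSO and GSK-126 libraries of a replicate number and bars for the mean and SD of each group (n = 3). Jarid2 is lower with GSK-126 along all 3 lines, for example from 301 to 203 CPM in replicate 2, while Ezh1 and Eed lie between 33.5 and 43.4 CPM throughout.

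Ezh2, the enzyme that GSK-126 inhibits (ENSMUSG00000029687.16, GRCm38, chromosome 6, 47530139 to 47595341, minus strand, 21 merged exons), had 43.7, 36.1 and 29.8 CPM in DMSO replicates 1, 2 and 3, and 41.8, 32.7 and 26.2 CPM in GSK-126 replicates 1, 2 and 3. Replicate 1 was the highest and replicate 3 the lowest in both groups, so that the treated library of replicate 1 lay above the untreated libraries of replicates 2 and 3. The means were 36.5 ± 6.97 and 33.6 ± 7.82 CPM (SD, n = 3). The log2 fold change was -0.12 without the block (SE 0.21) and -0.13 with it (SE 0.11, 95% interval -0.36 to 0.11, adjusted p = 0.563, edgeR with Benjamini-Hochberg adjustment). In all 3 pairs the GSK-126 library was the lower one, with differences of -4.47%, -9.26% and -12.2%, a pattern that 22.8% of all genes showed. Without pair 2 the log2 fold change with the block was -0.12.

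Ezh1, the paralog of postmitotic cells (ENSMUSG00000006920.14, chromosome 11, 101191115 to 101226463, minus strand, 21 merged exons), had 36.5, 43.4 and 34.9 CPM in DMSO replicates 1, 2 and 3, and 35.8, 38.1 and 37.9 CPM in GSK-126 replicates 1, 2 and 3. All 6 libraries lay within a 1.25-fold range, the narrowest of the 10 members, and the treated libraries lay inside the range of the untreated ones. The log2 fold change with the block was -0.033 (SE 0.11, 95% interval -0.27 to 0.20, adjusted p = 0.902, edgeR with Benjamini-Hochberg adjustment), and it was 0.049 without pair 2. The interval corresponds to a change of between -17.0% and 15.1%, and for Ezh2 of between -22.3% and 7.77%. Per kb of exon, the sum of Ezh1 and Ezh2 was 10.6 ± 1.27 CPM (SD, n = 3) in the DMSO group and 10.04 ± 1.02 CPM in the treated group.

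The promoters of this pair, 250 bases before to 50 after the RefSeq start site on GRCm38.p6, are printed to set the target of GSK-126 beside its paralog. A search of both strands for the E2F-type sequences TTTGGCGC, TTTGCCGC, TTTCGCGC and TTTCCCGC found a match in Ezh2, shown in capitals, and none in Ezh1. E2F factors are activators and repressors of cell cycle genes. A forward and a reverse match can overlap at the GC letters that end these sequences, which did not occur in the windows of the members.
Ezh2, chr6:47594981-47595280, minus strand: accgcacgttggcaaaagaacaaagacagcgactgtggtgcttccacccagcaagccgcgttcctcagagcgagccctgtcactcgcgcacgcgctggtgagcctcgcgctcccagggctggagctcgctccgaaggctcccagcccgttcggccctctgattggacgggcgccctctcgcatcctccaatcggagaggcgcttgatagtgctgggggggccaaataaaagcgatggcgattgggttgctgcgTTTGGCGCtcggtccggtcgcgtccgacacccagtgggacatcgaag
Ezh1, chr11:101226414-101226713, minus strand: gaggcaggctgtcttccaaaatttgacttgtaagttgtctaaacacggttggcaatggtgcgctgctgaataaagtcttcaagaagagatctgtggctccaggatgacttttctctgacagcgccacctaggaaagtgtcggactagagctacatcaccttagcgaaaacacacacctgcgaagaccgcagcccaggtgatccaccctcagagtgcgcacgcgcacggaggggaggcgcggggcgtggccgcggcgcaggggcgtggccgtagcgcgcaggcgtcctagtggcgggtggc

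The match in Ezh2 began at position 3 after the start site. Of all 14 promoter windows of the 10 members, 3 held a match, those of Ezh2, Suz12 (position -219) and Phf19 (position -208, the reverse form of TTTCCCGC), whereas 2.26% of the 32851 windows in the RefSeq table did. The windows of Ezh2, Suz12 and Phf19 had 64.3%, 71.0% and 74.3% GC and 31, 41 and 38 CpG. The medians over all windows were 52.7% GC and 7 CpG, and no share was counted over windows of like composition. The window of Rbbp7, with 38 CpG, held no match. A match is a description of these letters and not a site of binding.

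Suz12, the scaffold of the complex (ENSMUSG00000017548.15, chromosome 11, 79993106 to 80034123), had 65.3, 95.6 and 72.1 CPM in DMSO replicates 1, 2 and 3, and 67.0, 84.5 and 62.9 CPM in GSK-126 replicates 1, 2 and 3. Replicate 2 was the highest in both groups. The log2 fold change with the block was -0.11 (SE 0.089, 95% interval -0.30 to 0.074, adjusted p = 0.513, edgeR with Benjamini-Hochberg adjustment), with 1 pair higher and 2 lower, and -0.076 without pair 2.

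Eed, the reader of H3K27me3 (ENSMUSG00000030619.9, chromosome 7, 89954654 to 89980983), had 33.9, 38.9 and 33.7 CPM in DMSO replicates 1, 2 and 3, and 33.8, 42.5 and 33.5 CPM in GSK-126 replicates 1, 2 and 3. Pairs 1 and 3 differed by -0.32% and -0.58%, and the log2 fold change with the block was 0.040 (SE 0.11, 95% interval -0.19 to 0.27), or -0.0038 without pair 2. Rbbp7, the histone-binding subunit (ENSMUSG00000031353.13, chromosome X, 162760402 to 162779092), had 154, 143 and 125 CPM in DMSO replicates 1, 2 and 3, and 148, 123 and 135 CPM in GSK-126 replicates 1, 2 and 3. Its log2 fold change with the block was -0.054 (SE 0.081, 95% interval -0.22 to 0.11), and 0.028 without pair 2. Neither Eed nor Rbbp7 differed beyond the spread of its libraries.

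Exons of Eed, Suz12, Rbbp7, Mtf2 and Ezh2 overlap a gene on the opposite strand over 2.61% to 6.93% of their length, and the strand setting of the counting was not given in the sources used here.

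Jarid2, which helps to recruit PRC2.2 and also tunes its activity (ENSMUSG00000038518.15, chromosome 13, 44729474 to 44921643, plus strand, 22 merged exons), had 170, 301 and 189 CPM in DMSO replicates 1, 2 and 3. In GSK-126 replicates 1, 2 and 3 it had 108, 203 and 137 CPM. The replicates kept the order 2, 3, 1 in both groups, and the groups overlapped because the treated library of replicate 2 lay above the untreated libraries of replicates 1 and 3. Within pairs the GSK-126 library differed by -36.4%, -32.5% and -27.4% (log2 differences -0.65, -0.57 and -0.46). The mean was 220 ± 70.7 CPM (SD, n = 3) in the DMSO group and 149 ± 48.7 CPM in the treated group.

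The log2 fold change of Jarid2 was -0.56 in both edgeR fits. Without the block its SE was 0.29 and its adjusted p 0.953 (Benjamini-Hochberg). With the block Jarid2 fell, with an SE of 0.075, a 95% interval of -0.72 to -0.41 and an adjusted p of 5.5e-05 (edgeR, Benjamini-Hochberg adjustment), and DESeq2 with the same block gave an adjusted p of 6.6e-08. Leaving out pair 1, 2 or 3 gave log2 fold changes of -0.50, -0.56 and -0.61 with adjusted p of 2.1e-04, 9.3e-04 and 3.0e-06 (edgeR). In fits without a pair, the estimated spread of a gene leans on that of all genes. The p of such fits, here and below, do not measure agreement between cultures. No exon of Jarid2 overlaps another gene, and no stretch of 100 bases of its transcripts is shared with another gene.

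The start of Jarid2 is printed because it is the member that passed in the fit with the block. RefSeq gives 2 windows for the gene, with 24 and 23 CpG, and neither holds an E2F-type match.
Jarid2, chr13:44730524-44730823, plus strand: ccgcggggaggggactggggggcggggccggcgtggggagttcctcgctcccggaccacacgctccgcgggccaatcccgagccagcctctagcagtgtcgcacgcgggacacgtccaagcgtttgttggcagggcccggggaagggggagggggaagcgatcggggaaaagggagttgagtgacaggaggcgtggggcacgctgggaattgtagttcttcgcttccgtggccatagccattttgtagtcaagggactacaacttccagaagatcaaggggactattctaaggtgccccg

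Aebp2, a zinc finger protein that binds nucleosomes with JARID2 (ENSMUSG00000030232.18, chromosome 6, 140622663 to 140678472), had 76.5, 96.0 and 84.8 CPM in DMSO replicates 1, 2 and 3, and 74.7, 84.8 and 85.1 CPM in GSK-126 replicates 1, 2 and 3. Its log2 fold change with the block was -0.071 (SE 0.085, 95% interval -0.25 to 0.11, adjusted p = 0.693, edgeR with Benjamini-Hochberg adjustment), and -0.012 without pair 2. The 2 groups overlapped, and pair 3 was level, with a difference of 0.30%. The ratio of Jarid2 to Aebp2, per kb of exon, was 2.25, 3.18 and 2.26 in DMSO replicates 1, 2 and 3 and 1.47, 2.43 and 1.63 in GSK-126 replicates 1, 2 and 3 (log2 difference -0.49, exact permutation test, two-sided, p = 0.3, a ratio chosen after the values were seen).

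**Figure D2:**
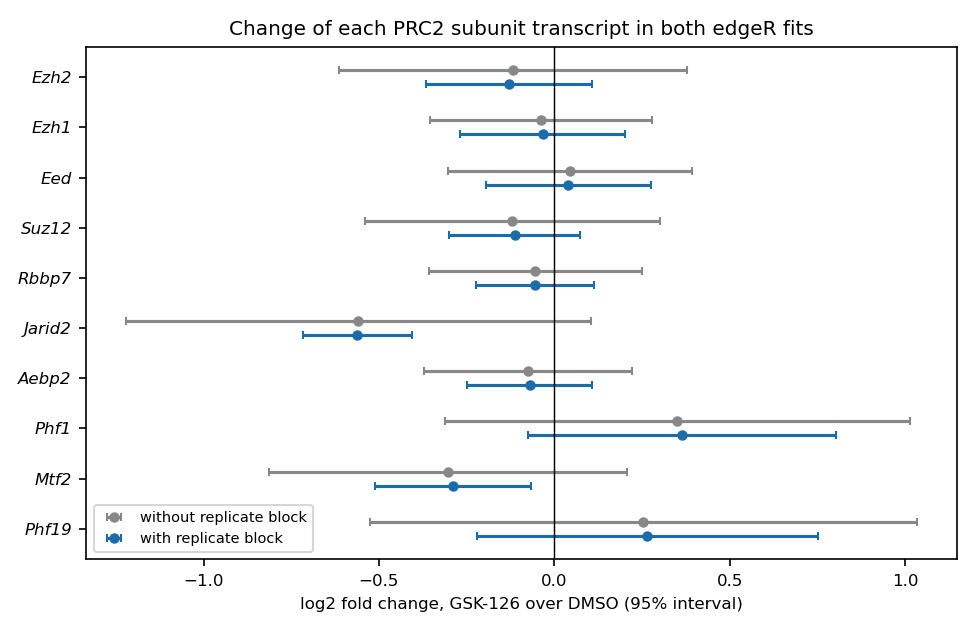
Log2 fold change of GSK-126 over DMSO for each PRC2 subunit, with the 95% interval of the edgeR fit without the replicate block in grey and with it in blue (n = 3 libraries per group). The point of Jarid2 is at -0.56 in both, and its interval runs from -1.22 to 0.10 without the block and from -0.72 to -0.41 with it.

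Among the Polycomb-like subunits, Mtf2 (ENSMUSG00000029267.17, chromosome 5, 108065674 to 108109004) was the most abundant. It had 55.1, 82.9 and 50.8 CPM in DMSO replicates 1, 2 and 3, and 41.5, 60.2 and 51.7 CPM in GSK-126 replicates 1, 2 and 3. Within pairs 1, 2 and 3 the GSK-126 library of Mtf2 differed by -24.8%, -27.4% and 1.67%. Its log2 fold change with the block was -0.29 (SE 0.11, 95% interval -0.51 to -0.067, adjusted p = 0.108, edgeR with Benjamini-Hochberg adjustment). Without pair 3 it was -0.44 with an adjusted p of 0.0114 (edgeR), and without pair 1 or 2 it was -0.21 and -0.19 with adjusted p of 0.457 and 0.483. The call of Mtf2 rested on which pairs were included.

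Phf1 (ENSMUSG00000024193.8, chromosome 17, 26933052 to 26937908) had 11.8, 8.39 and 15.6 CPM in DMSO replicates 1, 2 and 3, and 11.5, 19.1 and 15.2 CPM in GSK-126 replicates 1, 2 and 3. Pairs 1 and 3 differed by -2.08% and -2.67%, and pair 2 by 127%. The log2 fold change with the block was 0.36 (SE 0.21, 95% interval -0.076 to 0.80), and -0.032 without pair 2. The value of Phf1 is uncertain for another reason too: 1370 bp, or 39.3%, of its exons lie opposite exons of Cuta and AC144621.3, so that without a known strand setting their reads cannot be told apart.

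Phf19 (ENSMUSG00000026873.9, chromosome 2, 34893757 to 34914026), the least abundant member, had 8.54, 5.59 and 3.91 CPM in DMSO replicates 1, 2 and 3, and 8.94, 6.46 and 5.88 CPM in GSK-126 replicates 1, 2 and 3. It was the only member higher with GSK-126 in all 3 pairs, by 4.78%, 15.5% and 50.3%, a pattern that 19.5% of all genes showed. The log2 fold change with the block was 0.27 (SE 0.23, 95% interval -0.22 to 0.75, adjusted p = 0.562, edgeR with Benjamini-Hochberg adjustment), and the groups overlapped. It was 0.29 without pair 2 and 0.13 without pair 3.

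Ratios within a library compare subunits without scaling between libraries. The ratio of Ezh1 to Ezh2, per kb of exon, was 0.748, 1.08 and 1.05 in DMSO replicates 1, 2 and 3 and 0.769, 1.05 and 1.30 in GSK-126 replicates 1, 2 and 3. On this scale the paralogs were at like transcript levels in these cultures, with Ezh2 above Ezh1 in replicate 1 of both groups. The length used was that of all annotated exons merged, 7.44 kb for Ezh1 and 6.68 kb for Ezh2. The length of the transcripts expressed was not measured, and the level of one paralog beside the other depends on it. The log2 difference of GSK-126 from DMSO was 0.10 (exact permutation test, two-sided, p = 0.8), and its sign turned without DMSO replicate 1 or GSK-126 replicate 3.

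The ratio of the PRC2.1 subunits Phf1, Mtf2 and Phf19 to the PRC2.2 subunits Jarid2 and Aebp2, summed per kb of exon, was 0.584, 0.444 and 0.506 in DMSO replicates 1, 2 and 3 and 0.660, 0.587 and 0.642 in GSK-126 replicates 1, 2 and 3. The groups did not overlap, and the ratio was higher with GSK-126 in all 3 pairs. The log2 difference was 0.31 (p = 0.1 by a two-sided exact permutation test, which cannot go lower with 3 libraries a group), and the exact sign-flip test over pairs gave p = 0.25, also the smallest it can give. The difference depended on which subunits were summed. In alternatives chosen after seeing the data, with Aebp2 alone for PRC2.2 it was -0.022 (exact permutation p = 0.9), and with Phf1 left out of PRC2.1 it was 0.18 (exact permutation p = 0.2). The ratio of raw counts, without exon length, gave 0.26, and its exact permutation p of 0.2 shows that the groups were then no longer separated.

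**Figure D3:**
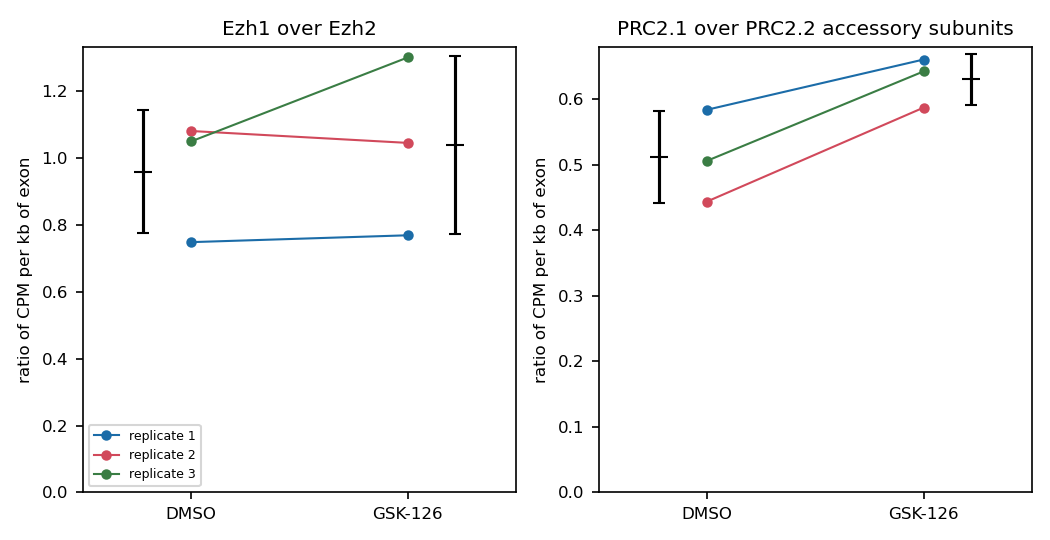
Ratio of CPM per kb of exon in each library for Ezh1 over Ezh2 (left) and for the PRC2.1 subunits over the PRC2.2 subunits (right), with a line for each replicate number and bars for the mean and SD of each group (n = 3). On the right the 3 GSK-126 libraries sit between 0.587 and 0.660, above the highest DMSO library at 0.584.

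Per kb of exon with DMSO, the members ran from 48.5 ± 5.07 CPM for Rbbp7, through 22.6 ± 7.28 for Jarid2, 15.7 ± 3.21 for Suz12, 11.0 ± 3.05 for Mtf2, 9.27 ± 0.764 for Eed and 8.71 ± 0.996 for Aebp2, to 5.47 ± 1.04 for Ezh2, 5.14 ± 0.614 for Ezh1, 3.42 ± 1.04 for Phf1 and 1.19 ± 0.465 for Phf19 (SD, n = 3). The ranges of neighbours did not overlap for Rbbp7 and Jarid2, Aebp2 and Ezh2, Ezh1 and Phf1, and Phf1 and Phf19. Neighbours in the stretches from Jarid2 to Aebp2 and from Ezh2 to Ezh1 overlapped. With GSK-126 the order was the same except that Mtf2 and Eed changed places, at 8.97 ± 1.65 and 9.57 ± 1.34 CPM per kb (SD, n = 3). Jarid2 stayed in its place after Rbbp7, at 15.4 ± 5.01 CPM per kb. This scale divides by the merged length of all annotated exons, not by that of the transcripts expressed, so the order depends on the annotation. It does not measure protein.

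**Figure D4:**
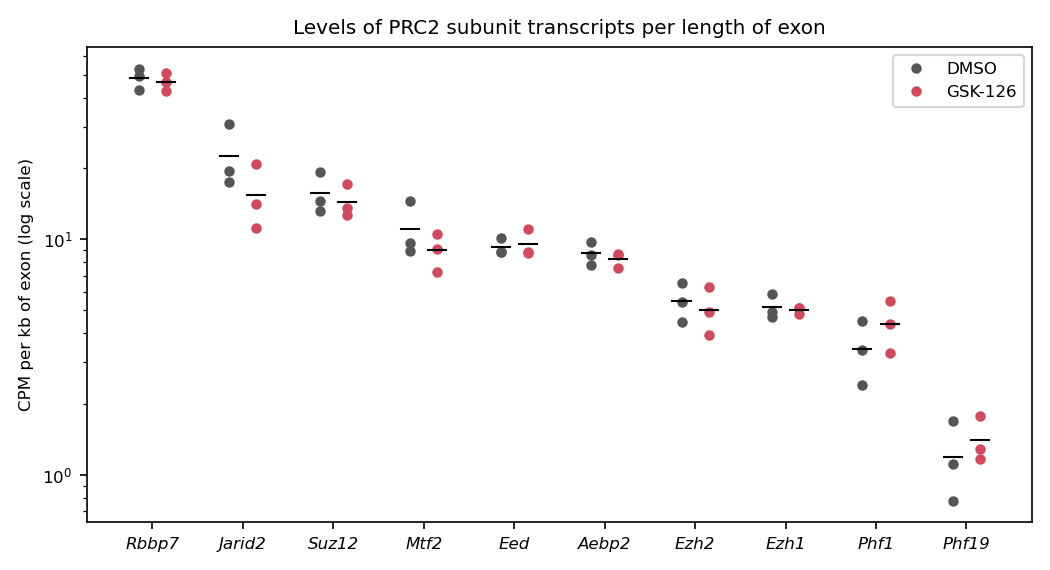
CPM per kb of exon (log scale) of the 10 members in each DMSO (grey) and GSK-126 (red) library, ordered by the DMSO mean, with a line at the mean of each group (n = 3). Rbbp7 is highest at 48.5 and Phf19 lowest at 1.19 with DMSO.

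Some members differed between replicate numbers. With the treatment in the fit, 4 of the 10 members differed between replicate numbers, beside 31.4% of all genes: Jarid2 (adjusted p = 1.1e-06), Mtf2 (0.0033), Suz12 (0.0045) and Ezh2 (0.0063, all by the F-test of edgeR, Benjamini-Hochberg adjustment). Without pair 2, 1 of the 10 differed. No share of all genes was counted for that fit, so nothing about the members is read from the lower count. The share with all pairs is near that of all genes and is not a result about the 10 members together. Jarid2, Mtf2 and Suz12 were highest in replicate 2 of both groups, and Ezh2 was highest in replicate 1 and lowest in replicate 3. The largest range over the 6 libraries was that of Jarid2, at 2.78-fold.

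Markers of mature granule neurons and Jarid2 were both lower with GSK-126 in all 3 pairs. In the GSK-126 library the sum of the 7 markers was 0.531, 0.466 and 0.537 times that of its DMSO partner in pairs 1, 2 and 3, beside 0.636, 0.675 and 0.726 times for Jarid2. The sum was thus lowest beside its partner in pair 2, and Jarid2 in pair 1. Both had the order of replicates 2, 3, 1 in both groups. That order was not particular to them, since Kdm6b, described below, had it with a log2 fold change of -0.059 with the block. All 7 fell with the block, as did 9 of the 15 genes of the wider granule neuron list, of which 5 are also in the mature list, beside 5.09% of all genes (edgeR, adjusted p under 0.05). Of the tested markers of other cells, 2 of 8 astroglial, 2 of 4 granule neuron precursor, 3 of 7 microglial, 3 of 10 endothelial, mural and fibroblast and 1 of 8 oligodendrocyte lineage markers rose with the block, beside 3.35% of all genes, and 3 of 8 Purkinje and interneuron markers fell. The summed precursor list with GSK-126 was 1.38, 1.41 and 1.18 times its DMSO partner in pairs 1, 2 and 3. In the same order the sums were 1.22, 1.46 and 1.17 times for microglia and 1.02, 1.16 and 1.14 times for oligodendrocyte lineage. For Purkinje cells and interneurons they were 0.840, 0.817 and 0.672 times. The astroglial sum had no common direction, at 1.05, 0.954 and 0.993 times in pairs 1, 2 and 3. Endothelial, mural and fibroblast markers summed to 5184, 6004 and 7231 CPM in DMSO replicates 1, 2 and 3. In GSK-126 replicates 1, 2 and 3 they summed to 6626, 6448 and 7955 CPM. The wider granule neuron list was 0.796, 0.799 and 0.782 times its DMSO level in pairs 1, 2 and 3. The part of any of these lists in the difference of Jarid2 was not tested. Beside Ezh2, the 20 proliferation genes summed to 907, 702 and 812 CPM in DMSO replicates 1, 2 and 3 and to 1018, 695 and 859 CPM in GSK-126 replicates 1, 2 and 3. Ezh2 and this list were both highest in replicate 1, but the list was lowest in replicate 2 and Ezh2 in replicate 3.

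**Figure D5:**
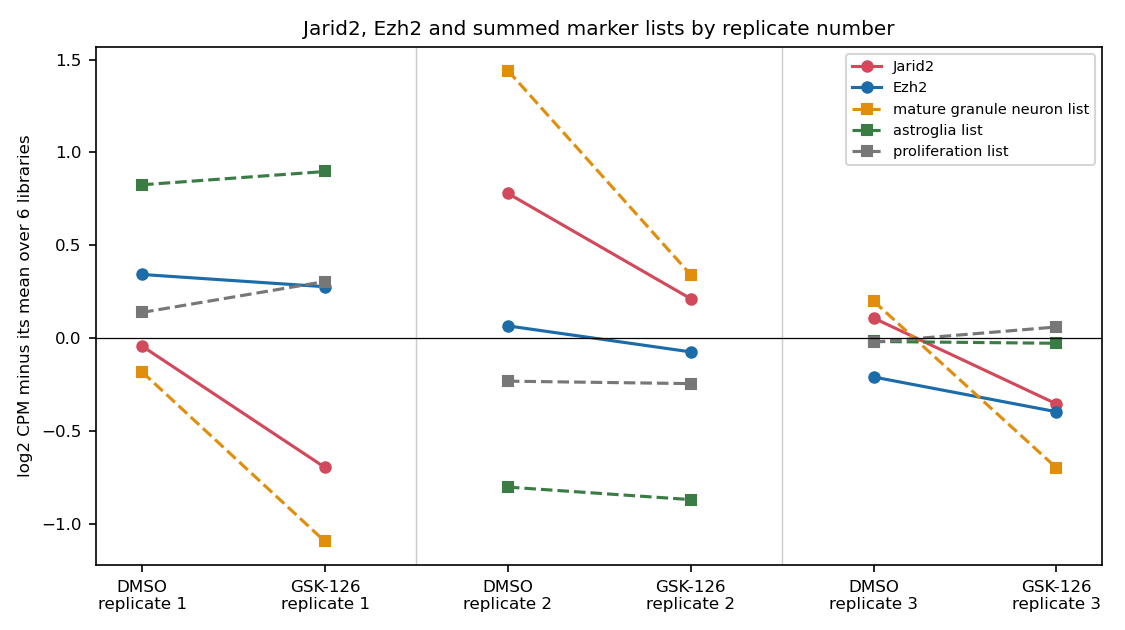
Log2 CPM of Jarid2, of Ezh2 and of the summed mature granule neuron, astroglia and proliferation lists, each minus its own mean over the 6 libraries, for both libraries of each replicate number. Jarid2 and the mature granule neuron list are both highest in replicate 2 and both lower with GSK-126 in all 3 replicates, the list reaching 1769 CPM in DMSO replicate 2.

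The other Polycomb genes were read from lists written by hand. Of 6 further PRC2-associated genes, 5 were tested, and 0 passed with or without the block, against a median log2 fold change of -0.13. RBBP4, the paralog of RBBP7 in the same complex, had 193, 189 and 166 CPM of Rbbp4 transcript in DMSO replicates 1, 2 and 3 and 184, 194 and 176 CPM in GSK-126 replicates 1, 2 and 3, with a log2 fold change of 0.015 (95% interval -0.14 to 0.17 with the block). Neither histone-binding paralog differed beyond its spread.

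Of the 20 genes of PRC1, the complex that ubiquitinates histone H2A and holds readers of H3K27me3, 0 passed without the block, and 1 fell with it, a share near the 5.09% of all genes that were lower with the block. That gene was Cbx6, which encodes a chromodomain reader, with 242, 307 and 263 CPM in DMSO replicates 1, 2 and 3 and 195, 240 and 195 CPM in GSK-126 replicates 1, 2 and 3. The groups of Cbx6 did not overlap, and its log2 fold change was -0.36 (SE 0.071, adjusted p = 0.0023 with the block, 0.953 without it, edgeR with Benjamini-Hochberg adjustment). The adjusted p lay between 0.0085 and 0.0207 with any pair left out. The median log2 fold change of the PRC1 genes was -0.075 without the block and 15 of the 20 were on the lower side, beside -0.0071 and 8568 of 16729 over all genes tested, and nothing is read from this difference. Bmi1, a PRC1 core subunit, passed only without pair 2, on the higher side (log2 fold change 0.39, adjusted p = 0.0273, edgeR with block).

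The demethylases that remove the mark were also read. Kdm6a, which lies on the X chromosome, had 60.4, 92.1 and 71.2 CPM in DMSO replicates 1, 2 and 3 and 54.0, 62.5 and 70.4 CPM in GSK-126 replicates 1, 2 and 3. Its log2 fold change with the block was -0.25 (SE 0.10, adjusted p = 0.159), and without pair 3 it was -0.36 (adjusted p = 0.0450, both edgeR with Benjamini-Hochberg adjustment). Kdm6b, the inducible paralog, had 120, 155 and 139 CPM in DMSO replicates 1, 2 and 3 and 118, 149 and 131 CPM in GSK-126 replicates 1, 2 and 3, with a log2 fold change of -0.059 (95% interval -0.22 to 0.099 with the block). Transcripts of neither eraser passed the test with all pairs in the fit.

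The genes most like Ezh1 and Ezh2 in their course over the 6 libraries were sought among 15219 genes, by the root mean square difference of log2 CPM after each gene was centred on its mean. For Ezh1 they were 5730455P16Rik (0.016), Lrpprc (0.023), Zpr1 (0.025), BC024978 (0.025) and Blmh (0.027), all with little difference between libraries. For Ezh2 they were Slc22a4 (0.038), Cited1 (0.057), Asrgl1 (0.057), Timp4 (0.076) and 2310031A07Rik (0.077), all highest in replicate 1 of their group and lowest in replicate 3. On the same measure Ezh1 and Ezh2 were 0.28 apart. Aebp2 was the member nearest to Ezh1, at 0.073, and Rbbp7 the member nearest to Ezh2, at 0.19. The 6 libraries are paired by replicate number and the labels do not say what a pair shares, so these distances are descriptions.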

How the data were processed

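RNA-seq of CGNs in culture, with poly-A selection and paired reads of 150 bases, was compared between 3 DMSO and 3 GSK-126 libraries, grouped by their labels. The authors trimmed reads with Trimmomatic 0.38, aligned them to GRCm38 with STAR 2.7.2b (versions per the submitters' processing notes), counted exon reads with HTSeq and deposited raw counts per gene, without normalization. Lines that name no gene held 58.7% to 60.7% of the listed reads and were left out. Reads assigned to no feature alone were 45.3% to 46.6% of the listed reads, for a reason that was not tested.

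Counts were tested with edgeR 4.0.16 in R 4.3.3 (TMM, filterByExpr, 16729 genes kept, quasi-likelihood test, adjusted p under 0.05) without a block, as the study names none. Alternatives were the replicate block, DESeq2 1.42.0, total-count and upper-quartile scaling, no filter, a minimum of 10 counts and each library or pair left out. Deviations from the group means correlated at 0.561, 0.634 and 0.487 between libraries of the same number, so the numbers were taken to pair the libraries. The correlations of 0.00638 or less otherwise are not separate evidence, since deviations cancel within a group. The biological coefficient of variation was 24.0% without the block and 9.74% with it. No library was a copy of another (chi-square per degree of freedom 9.01 or more).

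Exon lengths and overlaps came from GENCODE M21, whose 55341 symbols are those of the tables, and promoters from RefSeq on GRCm38.p6, with windows for all 10 members. The members and lists were chosen with earlier results of these data known. The text names all 10 members, the pathway genes that passed in either fit, Rbbp4, Kdm6a and Kdm6b, and the 5 genes nearest to Ezh1 and to Ezh2. Bmi1 was named after its values were seen.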

Additional observations from a re-analysis of the deposited data

How the results depend on the processing

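The 3 libraries per group and a biological coefficient of variation of 24.0% between cultures limit what the fit without the replicate block can show. Jarid2 stayed lower in every alternative run, and passed with the block under edgeR and DESeq2 and with any pair left out. It did not pass in the alternatives without the block, where leaving out a library moved its log2 fold change between -0.83 and -0.26. In place of 0 calls in either direction over all genes, the alternatives gave 19 higher and 2 lower (DESeq2 without block), 9 and 1 (no filter), 561 and 851 (replicate block), 351 and 600 (DESeq2 with block), and 417 and 671, 337 and 496, or 558 and 719 (block without pair 1, 2 or 3). Of the members, 1 was lower in each block fit, and 2 without pair 3. Of the other Polycomb genes, 1 was lower in each block fit and 2 without pair 3, and 1 was higher without pair 2. Other counts of member and pathway calls were 0, also with each library left out. In place of the 4 members that differed between replicate numbers, fits with a pair left out gave between 1 and 3, and 1 without pair 2. No share of all genes was counted for those fits, so nothing about the members is read from these counts.

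With each library left out in turn, the sign turned for Ezh1 (-0.10 to 0.067), Ezh2 (-0.29 to 0.048), Eed (-0.059 to 0.12), Suz12 (-0.24 to 0.060), Rbbp7 (-0.13 to 0.032), Aebp2 (-0.13 to 0.018) and the log2 Ezh1 to Ezh2 ratio (-0.079 to 0.30). The PRC2.1 to PRC2.2 ratio (0.21 to 0.41), Mtf2 (-0.43 to -0.050), Phf1 (0.15 to 0.60) and Phf19 (0.020 to 0.60) kept their sign over a wide range. In the replicate block without pair 2, Ezh1 (0.049), Eed (-0.0038), Rbbp7 (0.028) and Phf1 (-0.032) turned. With Aebp2 alone for PRC2.2 the log2 ratio was -0.022, since Jarid2 was then left out, and as a ratio of raw counts it was 0.26. Total-count and upper-quartile scaling moved the median of all genes by 0.034 and changed no call of a member. Causes of the other changes were not tested.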
